A study of Mus musculus with 20 samples.

Results

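Expression of 9 complement genes was followed in the gastrocnemius muscle of 20 aged mice: C1qa, C1qb and C1qc, C1ra and C1s1, C4b, C3, the inhibitor gene Serping1 and the receptor gene C3ar1. They were taken by name as components, a regulator and the C3a receptor of the complement system, and all 9 were found among the 55401 genes of the count matrix and passed the filter on low counts, which kept 13626 genes. The mice were C57BL/6 animals, bought at an older age or bred in the study's own facility, and all were 24 months old at collection. Of these, 10 received HK (Haenkenium), a standardized extract of the sage Salvia haenkei that is rich in polyphenols, at 0.5 mg per kg per day in the drinking water from 20 months of age, for 4 months, and 10 received none and are called untreated. Both groups were composed of 5 males and 5 females. The labels place 8 mice in experimental batch 1, with 2 mice for each treatment and sex, and 12 in experimental batch 2, with 3 for each. RNA of whole muscle was depleted of ribosomal RNA and sequenced, and a library held 13900180 to 30469644 counts, with a median of 20950853 in batch 1 and of 15766065.5 in batch 2. The summed level of 9 skeletal muscle genes, between 160479 and 222629 CPM (counts scaled to a normalized library total of 1e+06) in every mouse, fitted the labelled tissue. Muscle of young mice was not analysed here.

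Complement is a chain of proteins that tags cells and debris for removal. In the classical pathway, C1q, a recognition molecule built from the products of C1qa, C1qb and C1qc, binds to antibody or to altered surfaces and activates the proteases C1r and C1s. C1s then cleaves C4 and C2, and the convertase so formed cleaves C3, whose fragment C3b coats the target and whose fragment C3a signals through the receptor C3aR1. The C1 inhibitor, encoded by Serping1, blocks C1r and C1s. Most complement protein in blood is made in the liver, but C1q is made largely by macrophages and related myeloid cells, and mesenchymal cells such as fibroblasts make several of the other early components locally.

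The C1q genes lie together on the minus strand of chromosome 4 (GRCm38, GENCODE M21), C1qb at chr4:136880129-136886187, C1qc at chr4:136889804-136893065 and C1qa at chr4:136895917-136898803. The protease genes are neighbors on chromosome 6, C1ra on the plus strand at chr6:124512405-124523443 and C1s1 on the minus strand at chr6:124530345-124542359, and C3ar1 lies on the same chromosome at chr6:122847138-122856161. C4b (chr17:34728380-34743882) and C3 (chr17:57203970-57228136) are on the minus strand of chromosome 17, and Serping1 is on the minus strand of chromosome 2 (chr2:84765387-84775444). The counts of 3 members may hold reads of a close copy or lack reads of their own, since the handling of reads that match several genes is not given in the sources used here. Of the 75-base windows of its exons, C1ra shares 42.4% with another gene, mostly C1rb, C1s1 shares 24.8%, with C1s2 and a predicted gene, and C4b shares 22.7% with C4a. The other 6 members share none. C1rb had no counts, C1s2 had 21 and C4a had 48 over all mice, against 1905 for C1ra, 8387 for C1s1 and 4162 for C4b.

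Sequence before the start site is shown for the 4 members that held a match to a motif searched for, C1qb, C1qc, C1s1 and C3. They were thus picked by their matches, and not as samples of the genes that varied together among the mice. The letters are from RefSeq (GRCm38.p6), 5′ to 3′ on the strand of the gene, and capitals mark a match to a motif. In C1qb (chr4:136886201-136886450) and C1qc (chr4:136893066-136893164) they mark the core of the motif of PU.1, a transcription factor of myeloid cells, spelled GAGGAA, which reads TTCCTC where it lies on the other strand. In C1s1 (chr6:124542360-124542609) and C3 (chr17:57228137-57228386) they mark a match to TTNNGCAA, the motif of C/EBP factors, which in C3 lies on the other strand. For C1qc, 151 bases next to the start fall inside the GENCODE gene and were left off.
C1qb: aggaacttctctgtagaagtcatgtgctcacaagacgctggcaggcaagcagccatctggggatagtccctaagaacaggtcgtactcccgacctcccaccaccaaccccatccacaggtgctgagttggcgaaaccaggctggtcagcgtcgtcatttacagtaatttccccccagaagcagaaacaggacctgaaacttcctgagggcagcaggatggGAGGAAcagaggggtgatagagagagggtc
C1qc: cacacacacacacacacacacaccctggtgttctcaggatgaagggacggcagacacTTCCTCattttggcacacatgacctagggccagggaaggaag
C1s1: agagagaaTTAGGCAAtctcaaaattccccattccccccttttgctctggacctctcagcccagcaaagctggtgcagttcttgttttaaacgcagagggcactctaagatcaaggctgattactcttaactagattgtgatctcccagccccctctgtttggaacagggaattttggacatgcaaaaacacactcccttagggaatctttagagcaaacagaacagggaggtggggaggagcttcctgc
C3: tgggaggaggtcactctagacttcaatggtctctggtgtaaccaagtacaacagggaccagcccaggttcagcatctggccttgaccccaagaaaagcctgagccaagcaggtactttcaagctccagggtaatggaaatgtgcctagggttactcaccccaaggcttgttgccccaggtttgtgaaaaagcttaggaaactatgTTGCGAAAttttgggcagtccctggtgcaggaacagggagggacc

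The match ended 25 bases before the start in C1qb and 188 bases before it in C1qc. It ended 235 bases before the start in C1s1 and 38 bases before it in C3. RefSeq lists a further start for C1s1, and the 250 bases before that start (chr6:124542322-124542571) held no match. Both motifs are short. Searched on both strands over the 250 bases before 32851 starts, GAGGAA was found in 23.3% and TTNNGCAA in 9.56%. The gamma-interferon activated site TTCNNNGAA (7.02% of starts), the interferon-stimulated response element (2.98%) and the E-box CACGTG (6.02%) were in none of the 6 members with a RefSeq entry, and C1ra and C3ar1 held none of the 5 motifs in this window. For C1ra 216 of the 250 bases fall inside the GENCODE gene, so only 34 of the bases searched lie before that gene. C1qa, C4b and Serping1 had no entry.

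All members were expressed, over a wide range. Per kilobase of exon, Serping1 was highest, with a median of 16.3 CPM per kb over the 20 mice (4.42 to 37.2), followed by C1qa (10.5), C3 (10.1), C1qb (9.39), C1s1 (7.67) and C1qc (5.08). C4b (1.91 CPM per kb) and C1ra (1.85) were lower, and the receptor C3ar1 was lowest at 0.287 (0.0179 to 1.8). The ranges of all 8 neighboring pairs in this order overlapped, so the order is that of the medians. For C1ra, C1s1 and C4b the levels would be too low if reads matching several genes were left out. Within single mice, Serping1 exceeded C1qa in 18 of 20 and C1ra exceeded C3ar1 in 20 of 20, while C1qb and C1s1 (10 of 20) and C4b and C1ra (10 of 20) were not ordered. C1qa exceeded C3 in only 4 of 20 mice although its median was higher. C3ar1 rested on few counts, between 1 and 142 per mouse, whereas the other members had at least 29 in every mouse.

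**Figure D1:**
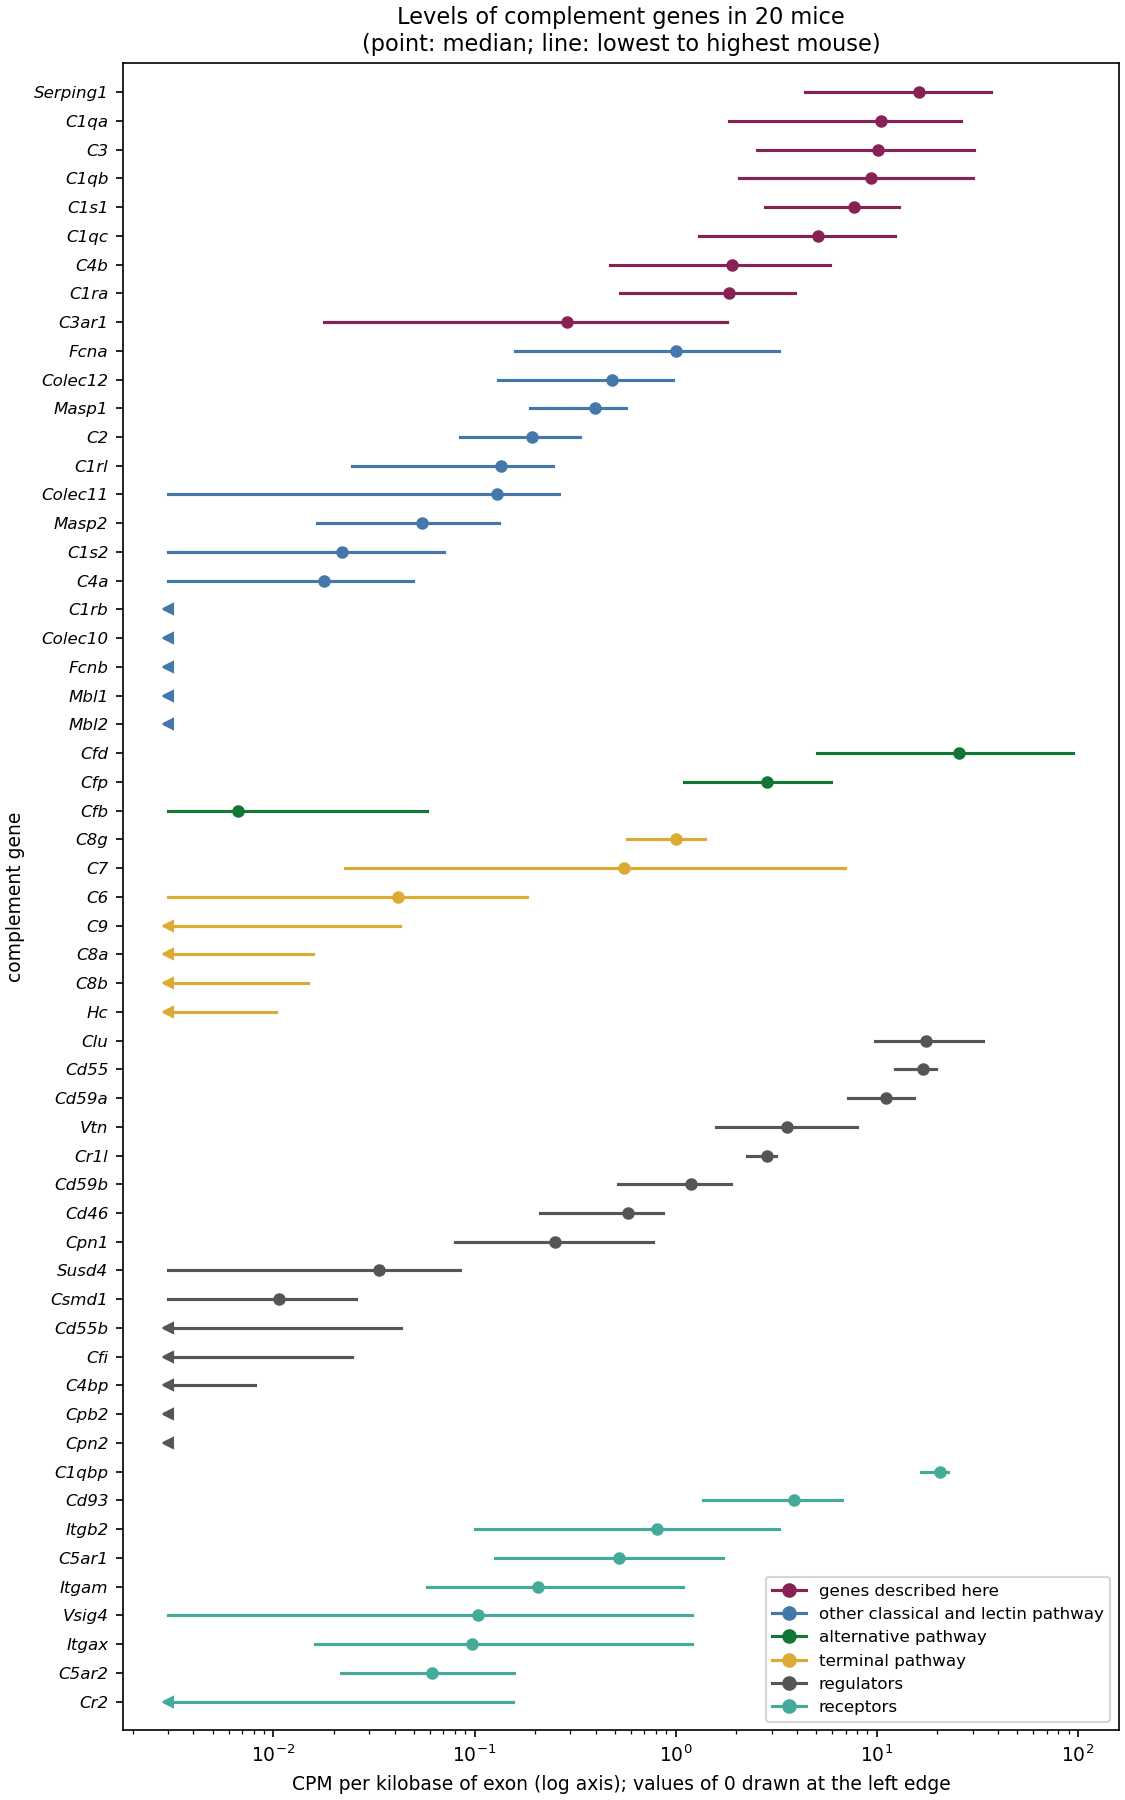
Level of the 9 complement genes described here and of other complement genes in CPM per kb of exon (log axis, values of 0 at the left edge), grouped by pathway. Points are medians of 20 mice and lines run from the lowest to the highest mouse, and among the members Serping1 at a median of 16.3 and C3ar1 at 0.287 stand at the ends.

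Within genes the spread between mice was large. On the CPM scale, C1qb ranged from 2.24 to 32.8, C3 from 13.1 to 158, C4b from 2.68 to 33.6 and Serping1 from 10.3 to 86.5. The extremes fell on few animals. HK-treated male 1, of batch 1, was lowest of all 20 mice in 8 of the 9 members, and HK-treated male 3, of batch 2, was highest in 4 (C1ra, C1s1, C3 and Serping1). Untreated male 5 was highest in C1qb and C1qc, untreated male 4 in C1qa and C3ar1, and untreated female 3 in C4b. C3ar1 was lowest in untreated male 2, with 1 count.

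The clearest separation among the members was that between the experimental batches, a comparison added after the values were seen. C1qb ranged from 2.24 to 5.81 CPM with a median of 3.49 in the 8 mice of batch 1, and from 6.01 to 32.8 with a median of 17 in the 12 of batch 2. C1qa (1.91 to 6.22 against 6.68 to 27.3) and C1qc (2.51 to 5.16 against 5.89 to 24) were divided in the same way, as was C3, the common substrate of all complement pathways (13.1 to 46.6 against 47.1 to 158). In these 4 of 9 members no mouse of batch 1 reached the lowest mouse of batch 2, which was so for 1.06% of the genes tested. In C1ra, C1s1, C4b, Serping1 and C3ar1 the batches overlapped, although all 12 mice of batch 2 lay above the median of batch 1. C1ra ran from 1.58 to 5.28 CPM in batch 1 and from 4.13 to 11.7 in batch 2, C1s1 from 8.74 to 26.3 and from 19.9 to 40.4, and Serping1 from 10.3 to 36.1 and from 33.3 to 86.5. C4b ran from 2.68 to 8.49 and from 6.74 to 33.6 CPM, and C3ar1 from 0.0772 to 1.32 and from 0.724 to 7.77.

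**Figure D2:**
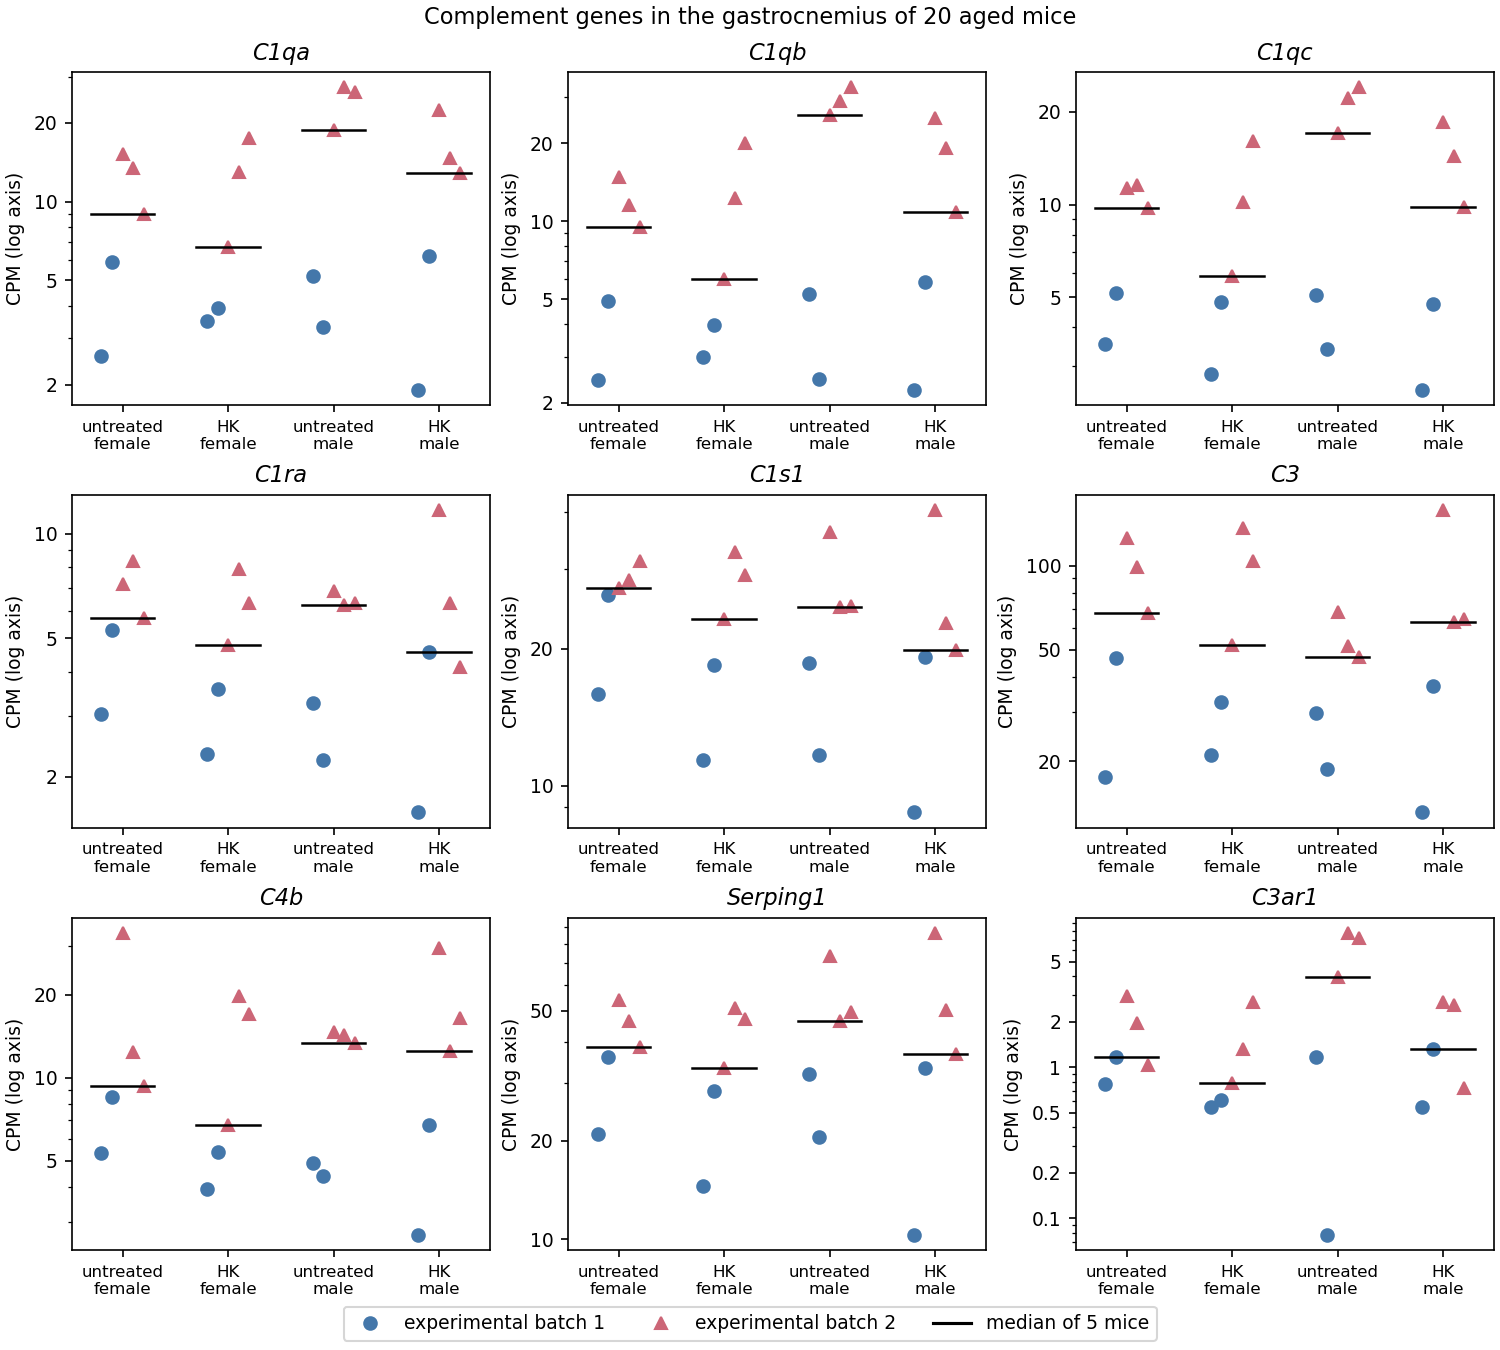
CPM (log axis) of the 9 complement genes in each of 20 mice, by treatment and sex, with circles for experimental batch 1, triangles for batch 2 and a bar for the median of 5 mice. Within every group of 5 the batch 2 mice lie mostly above those of batch 1, with no overlap over all mice for C1qa, C1qb, C1qc and C3.

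All 9 members were higher in batch 2 in the edgeR quasi-likelihood test with treatment and sex as covariates (18.2% of the 13626 genes tested were called higher and 19% lower, 37.1% in all, at an adjusted p under 0.05, Benjamini-Hochberg over all genes tested). The estimates were largest for C1qb and C1qa. C1qb was higher by a log2 fold change of 2.17 ± 0.26 (SE, adjusted p = 6.06e-06), or 4.49-fold, C1qa by 1.95 ± 0.23 (adjusted p = 6.03e-06) and C1qc by 1.77 ± 0.20 (adjusted p = 3.69e-06). C3ar1 differed by 1.70 ± 0.38, C4b by 1.67 ± 0.27 and C3 by 1.65 ± 0.26. The proteases and their inhibitor differed less, C1ra by 1.07 ± 0.21, Serping1 by 1.05 ± 0.21 and C1s1, the smallest, by 0.81 ± 0.17 (adjusted p = 0.00104), or 1.75-fold. The median log2 fold change of the members was 1.67, against 0.00248 over all genes tested. The difference was called for all 9 members in males alone and in untreated mice alone, and for 8 in females alone and in HK-treated mice alone (C3ar1 with adjusted p = 0.0604 and 0.0882 in edgeR, of a range from 1.85e-17 to 0.0882 over all settings tried).

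Marker genes of other cell types moved with the batches as well. All 13 genes of a macrophage list (Adgre1, Csf1r, Cd68 and others) were called higher in batch 2, and their summed level was 20.4 to 71.7 CPM in batch 1 and 61.5 to 305 in batch 2. So were all 12 genes of a fibroblast list (Pdgfra, Dcn, Col1a1 and others), with sums of 359 to 1066 and 737 to 2446 CPM, and so were the 3 neutrophil markers tested of 7 (median log2 fold change 2.73, against 1.5 for the macrophage and 1.12 for the fibroblast list). In the other lists the calls were 2 of 7 adipocyte, 1 of 7 endothelial and 2 of 9 skeletal muscle genes and the 1 hepatocyte gene tested of 7 (Trf, 1.37), all higher in batch 2. No marker of these lists was without counts, but 5 of the 7 hepatocyte and 2 of the 7 neutrophil genes had under 20 counts in all. The hepatocyte marker Alb had a median of 0.0926 CPM over all mice, against 17.7 for Trf, so Trf does not stand for that list. The neutrophil sum was low, at 0.302 to 1.09 CPM in batch 1 and 0.45 to 14.8 in batch 2. The part of the marked cell types in the result was not tested, and in bulk muscle fewer cells of a type and less RNA per cell cannot be told apart. The labels give only a batch number, and by the study's methods the batches were separate sequencing experiments. Differences in sequencing, in the animals and in the tissue taken cannot be told apart here. Treatment and sex were balanced within the batches, and batch was a covariate in the comparisons that follow.

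The study's muscle experiment asked whether HK counters an aging signature, which it tested with gene sets and reported as partly reverted. Here HK-treated and untreated mice were compared gene by gene, and no gene sets were tested. No complement gene passed the test, and neither did any other gene tested (0%, lowest adjusted p = 0.356 in edgeR), and the groups overlapped in every gene. At an unadjusted p under 0.05, 1 of the 9 members was lower, C3ar1, and none was higher, against 3.35% lower and 2.78% higher of all genes (6.13% in either direction). In the DESeq2 Wald test 7 genes passed, none of them a member. The point estimates of 8 of the 9 members were below 0, as were 6682 of the 13626 genes tested. The members had a median of -0.149, against 0.00238 over all genes tested. Members varied together between mice, so these estimates are not separate observations. In males alone and in batch 2 alone 6 of the 9 were below 0.

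C3ar1, the receptor of the C3a fragment, had the estimate farthest from 0. It ranged from 0.546 to 2.72 CPM (median 1.05) in the 10 HK-treated mice and from 0.0772 to 7.77 (median 1.56) in the 10 untreated mice. The untreated group held both the lowest and the highest mice, the 3 untreated males of batch 2 standing above all others at 3.98, 7.77 and 7.21 CPM, and the median of the untreated mice was exceeded by 3 of the 10 HK-treated mice. The log2 fold change was -0.80 ± 0.35 (95% interval -1.53 to -0.06) with an adjusted p of 0.795 in edgeR. It was -1.02 ± 0.405 in batch 2 alone (adjusted p = 0.755) and -0.145 ± 0.532 in batch 1 alone (adjusted p = 0.997), and the treatment by batch interaction was not called (adjusted p of 1 in edgeR). C3ar1 and C4b are on a list of genes that the study chose as higher in these untreated mice than in young ones, so their direction is not independent evidence.

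For the C1q genes, HK-treated and untreated mice covered nearly the same range. C1qa ran from 1.91 to 22.4 CPM (median 9.78) with HK and from 2.58 to 27.3 (median 11.2) without, and C1qb from 2.24 to 24.9 (median 8.47) and from 2.44 to 32.8 (median 10.5). C1qc had medians of 7.87 and 10.5 CPM. The untreated median was exceeded by 5 of the 10 HK-treated mice in C1qa and C1qb and by 3 in C1qc. The log2 fold changes were -0.24 ± 0.21 for C1qa, -0.23 ± 0.23 for C1qb and -0.29 ± 0.19 for C1qc, with 95% intervals from -0.68 to 0.20, from -0.71 to 0.26 and from -0.68 to 0.10. The intervals therefore still hold a fall to 0.61 of the untreated level for C1qb and a rise of 1.2-fold.

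The estimates for the proteases and their inhibitor lay nearer to 0. C1ra had a median of 4.68 CPM with HK and 5.99 without (log2 fold change -0.06 ± 0.20), C1s1 of 21.4 and 25.6 (-0.15 ± 0.16) and Serping1 of 35.1 and 42.6 (-0.15 ± 0.20). In each of these the lowest and the highest of the 20 mice were both HK-treated. C4b, which C1s cleaves, had medians of 9.63 and 10.9 CPM and a log2 fold change of -0.07 ± 0.25. C3 was the member with a higher estimate, from 13.1 to 158 CPM (median 57.4) with HK and from 17.6 to 125 (median 49.3) without, a log2 fold change of 0.19 ± 0.25 (95% interval -0.32 to 0.70) with an adjusted p of 0.913 in edgeR. Within batch 1 all 9 estimates were below 0 (median -0.192), with C3 at -0.109, and within batch 2 there were 6 below and 3 above (median -0.0296), with C3 at 0.387.

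**Figure D3:**
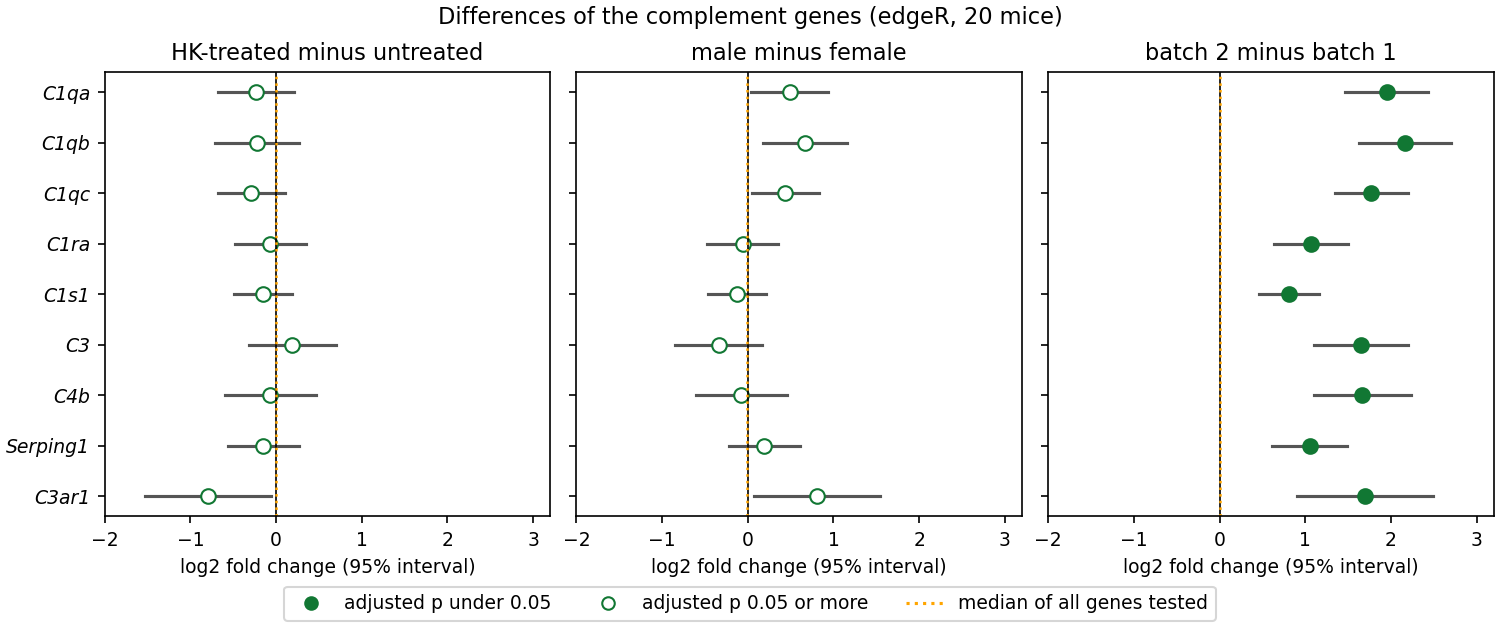
Log2 fold change with 95% interval of each complement gene, from edgeR on 20 mice, for HK-treated minus untreated, male minus female and batch 2 minus batch 1. Points are filled where the adjusted p is under 0.05, the dotted line is the median of all genes tested, and only the batch panel has filled points, all 9 of them, between 0.81 and 2.17.

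Most markers of several cell types had estimates on the same side. Of the 13 macrophage genes 12 had estimates below 0 in HK-treated mice, none of them called (median log2 fold change -0.315), and their sum was 20.4 to 228 CPM (median 75.6) with HK and 28.7 to 305 (median 92.7) without. All 12 fibroblast genes had estimates below 0, none called (median -0.25), with a summed median of 928 CPM with HK and of 1137 without. The same held for all 7 endothelial genes (median -0.258) and the 3 neutrophil genes tested (median -0.519), none called, while 4 of 7 adipocyte and 3 of 9 skeletal muscle genes were below 0. Their part in the estimates of the complement genes was not tested.

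Males and females differed in many genes, but no member passed the test (16.1% of genes tested were called, 8.79% higher in males and 7.33% lower). At an unadjusted p under 0.05, 4 of the 9 members were higher in males, against 15.6% of genes, and none was lower, against 14.8% (30.3% in either direction). These 4 were C1qa, C1qb, C1qc and C3ar1. The median over the members was 0.194 and that over all genes -0.00652. C1qb came nearest to the threshold. It ranged from 2.24 to 32.8 CPM (median 15) in the 10 males and from 2.44 to 20.1 (median 7.76) in the 10 females. Up to 20.1 CPM the sexes overlapped, and 4 of 10 males, the 3 untreated males and 1 HK-treated male of batch 2, lay above every female. The log2 fold change was 0.67 ± 0.24 (95% interval of the fold 1.13 to 2.24) with an adjusted p of 0.0575 in edgeR. It passed when 1 of 5 mice was left out (untreated male 2, untreated female 2, HK-treated male 1 or 5 or HK-treated female 5), at adjusted p between 0.0261 and 0.0396.

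The other 3 of these members had smaller or less certain differences. C1qa had a median of 13.8 CPM in males and 7.82 in females (log2 fold change 0.49 ± 0.21, adjusted p = 0.126 in edgeR), and C1qc of 12.1 and 7.83 (0.44 ± 0.19, adjusted p = 0.119). C3ar1 had medians of 1.95 and 1.1 (0.81 ± 0.35, adjusted p = 0.127), and passed without untreated male 2, its mouse with 1 count (adjusted p = 0.045). Settings mattered for these calls, and over those tried the adjusted p of C1qb ran from 2.43e-10 to 0.807. With limma voom C1qa, C1qb and C1qc passed (adjusted p = 0.0495, 0.0188 and 0.0342), and with the DESeq2 Wald test C1qb did (adjusted p = 0.0429). In the mice of batch 2 the log2 fold change of C1qb was 0.903 ± 0.272 (adjusted p = 0.0655) and in batch 1 it was 0.169 ± 0.345 (adjusted p = 0.807). Whether the difference between the sexes itself differed between the batches was not tested.

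Of the remaining members 4 had estimates below 0 and 1 above, none near the threshold. C3 had a median of 49.3 CPM in males and 59.9 in females (-0.34 ± 0.25), C1s1 of 21.4 and 26.8 (-0.13 ± 0.16), C4b of 13 and 8.89 (-0.08 ± 0.25), C1ra of 5.4 and 5.51 (-0.06 ± 0.20) and Serping1 of 41.6 and 37.4 (0.19 ± 0.20). For C4b the median was higher in males while the estimate, which takes batch and treatment into account, was just below 0. Among the markers, 2 of the 13 macrophage genes (Cd68 and Cx3cr1) were called higher in males, with sums of 20.4 to 305 CPM (median 133) in males and 37.9 to 170 (median 76.1) in females, and 1 of the 12 fibroblast genes (Col1a2) was. Of 7 adipocyte markers 5 were called lower in males. Their part was not tested.

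Whether the difference with HK was itself different between the sexes was tested as an interaction, and no gene was called (0%, lowest adjusted p = 0.998 in edgeR). The members' interaction estimates, HK-treated against untreated in males minus the same in females, ran from -0.58 ± 0.72 for C3ar1 to 0.76 ± 0.49 for C4b, and no member was under 0.05 before adjustment (3.5% of genes were, 1.81% above 0 and 1.69% below). In males the estimate was -0.431 ± 0.291 for C1qb and 0.488 ± 0.33 for C3, and in females it was 0.0335 ± 0.298 and -0.104 ± 0.306. The treatment by batch interaction ran from -0.82 ± 0.76 for C3ar1 to 0.47 ± 0.50 for C3 and was called for no gene (0%, with 3.01% of genes, 1.57% above 0 and 1.44% below, and no member under 0.05 before adjustment).

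How the members varied with each other was examined in the 20 mice after log2 CPM values had been adjusted for batch and sex. All 36 pairs had positive correlations, from 0.205 to 0.948 with a median of 0.709, and 31 passed a permutation test of 100000 permutations within batch and sex at an adjusted p under 0.05 over 54 relations. The smallest p these permutations can give is 1e-05. Within batches, r had a median of 0.896 in batch 1 (8 mice, 28 pairs called) and 0.557 in batch 2 (12 mice, 13 pairs called).

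The C1q genes varied together. C1qb and C1qc had r = 0.948 (rho = 0.931, permutation adjusted p = 4.91e-05), C1qa and C1qb r = 0.941 (rho = 0.958) and C1qa and C1qc r = 0.905 (rho = 0.898). Without the 2 mice farthest from the median the values were 0.917, 0.92 and 0.837, and within batches they were at least 0.858. Per kilobase, the ratio of C1qa to C1qb had a median of 1.06 and ran from 0.767 to 1.41 (coefficient of variation 16%), although C1qa itself varied 14.3-fold between mice. C3ar1 was related to all of them, with r = 0.853 to C1qb (rho = 0.845), 0.786 to C1qc (rho = 0.817) and 0.735 to C1qa (rho = 0.844). In batch 1 alone these relations of C3ar1 were 0.72, 0.526 and 0.512 and none was called (permutation adjusted p between 0.14 and 0.384). In batch 2 they were 0.902, 0.885 and 0.858.

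The proteases and their inhibitor also varied together. C1s1 and Serping1 had r = 0.942 (rho = 0.893, 0.923 without the 2 farthest mice, 0.97 in batch 1 and 0.887 in batch 2), C1ra and Serping1 r = 0.922 (rho = 0.908) and C1ra and C1s1 r = 0.90 (rho = 0.832). The ratio per kilobase of Serping1 to C1s1, the inhibitor to its target, had a median of 2.26 and a coefficient of variation of 18.4%, whereas that of C1qb to C1s1 ran from 0.441 to 3.8 with a coefficient of variation of 67.9%. These ratios are not adjusted for batch, and within batches 1 and 2 the coefficients were 15.6% and 16.5% for Serping1 to C1s1 and 21.6% and 50.8% for C1qb to C1s1. C3 and C4b were related to each other (r = 0.814, rho = 0.817) and to this set, C3 with C1ra at r = 0.822 (rho = 0.814). C4b with C1s1 had r = 0.607, and 0.412 in batch 2 alone, where it was not called (permutation adjusted p = 0.179). The sets were not separate, since the C1q genes were related to the proteases and the inhibitor too. Those values ran from 0.653 (C1qc and C1s1) to 0.748 (C1qa and C1ra), all called. In batch 2 alone they ran from 0.371 to 0.587, none called. Over all mice the C1q genes had lower values with C3, a difference that was not tested. C1qc and C3 had r = 0.425 (rho = 0.392, permutation adjusted p = 0.0675). This pair was called after adjustment for treatment as well (r = 0.501, permutation adjusted p = 0.026) and in batch 1 alone (permutation adjusted p = 0.026). C1qb and C3 were called (r = 0.506, rho = 0.466, permutation adjusted p = 0.034) but had r = 0.311 without the 2 farthest mice. Leaving out these mice narrows the range, and the lower value was not tested. Within batch 1 alone the C1q genes were close to C3, at r = 0.964 for C1qa, 0.955 for C1qb and 0.909 for C1qc, and in batch 2 the values were 0.405, 0.328 and 0.258. The other 4 pairs that were not called were those of C3ar1 with C3 (r = 0.205, rho = 0.233), C4b (r = 0.364, rho = 0.374), C1s1 (r = 0.446, rho = 0.435) and Serping1 (r = 0.454, rho = 0.493), with permutation adjusted p between 0.0895 and 0.412.

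**Figure D4:**
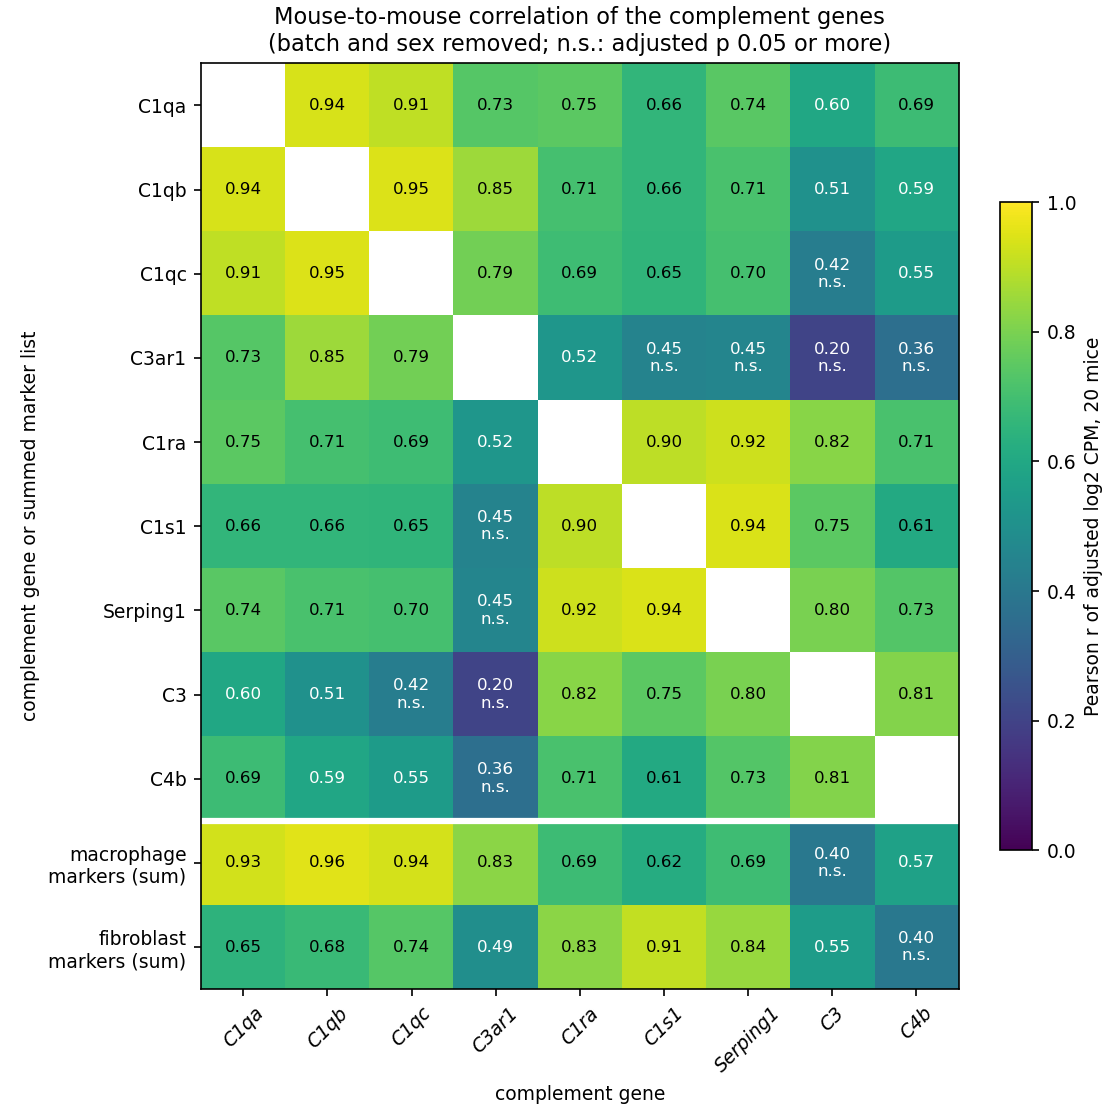
Pearson correlation of log2 CPM, adjusted for batch and sex, over 20 mice between the 9 complement genes and, in the bottom rows, with the summed macrophage and fibroblast markers. Values between genes run from 0.205 (C3 and C3ar1) to 0.948 (C1qb and C1qc), and n.s. marks the relations with an adjusted p of 0.05 or more.

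The members were also set against the marker lists. C1qb had r = 0.956 (rho = 0.949) with the log2 summed level of the 13 macrophage markers, C1qc 0.937 (rho = 0.914), C1qa 0.93 (rho = 0.926) and C3ar1 0.827 (rho = 0.821), and without the 2 farthest mice these were 0.94, 0.91, 0.889 and 0.847. In batch 2 the same relations were at least 0.936, and in batch 1 between 0.642, for C3ar1, and 0.976. C1s1 had r = 0.908 (rho = 0.92) with that of the 12 fibroblast markers, Serping1 0.845 (rho = 0.824) and C1ra 0.826 (rho = 0.783), all with a permutation adjusted p of 0.00051 or below. These were 0.821, 0.669 and 0.663 in batch 2 and 0.98, 0.963 and 0.955 in batch 1. Each set was also related to the other list. With the macrophage markers C1s1 had r = 0.618, Serping1 0.688 and C1ra 0.686, at 0.922, 0.914 and 0.964 in batch 1 and 0.374, 0.506 and 0.508 in batch 2. With the fibroblast markers C1qc had r = 0.737, C1qb 0.678, C1qa 0.646 and C3ar1 0.495. In batch 1 C1qc had a higher value with the fibroblast than with the macrophage markers (0.966 and 0.883), and C1ra a slightly higher one with the macrophage markers. The difference between the relations to the macrophage and to the fibroblast list was not tested, and the lists rose together between the batches. C3 had r = 0.402 with the macrophage markers (permutation adjusted p = 0.0646) and 0.551 with the fibroblast markers (permutation adjusted p = 0.0259). Here too the batches differed in value, at 0.96 and 0.885 in batch 1 and 0.233 and 0.328 in batch 2. The relation of C3 to the macrophage markers was called in batch 1 alone (permutation adjusted p = 0.00721) and after adjustment for treatment as well (r = 0.448, permutation adjusted p = 0.035). C4b had r = 0.932 with the fibroblast markers in batch 1 and 0.0416 in batch 2, and over all 20 mice 0.40 (permutation adjusted p = 0.0765).

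**Figure D5:**
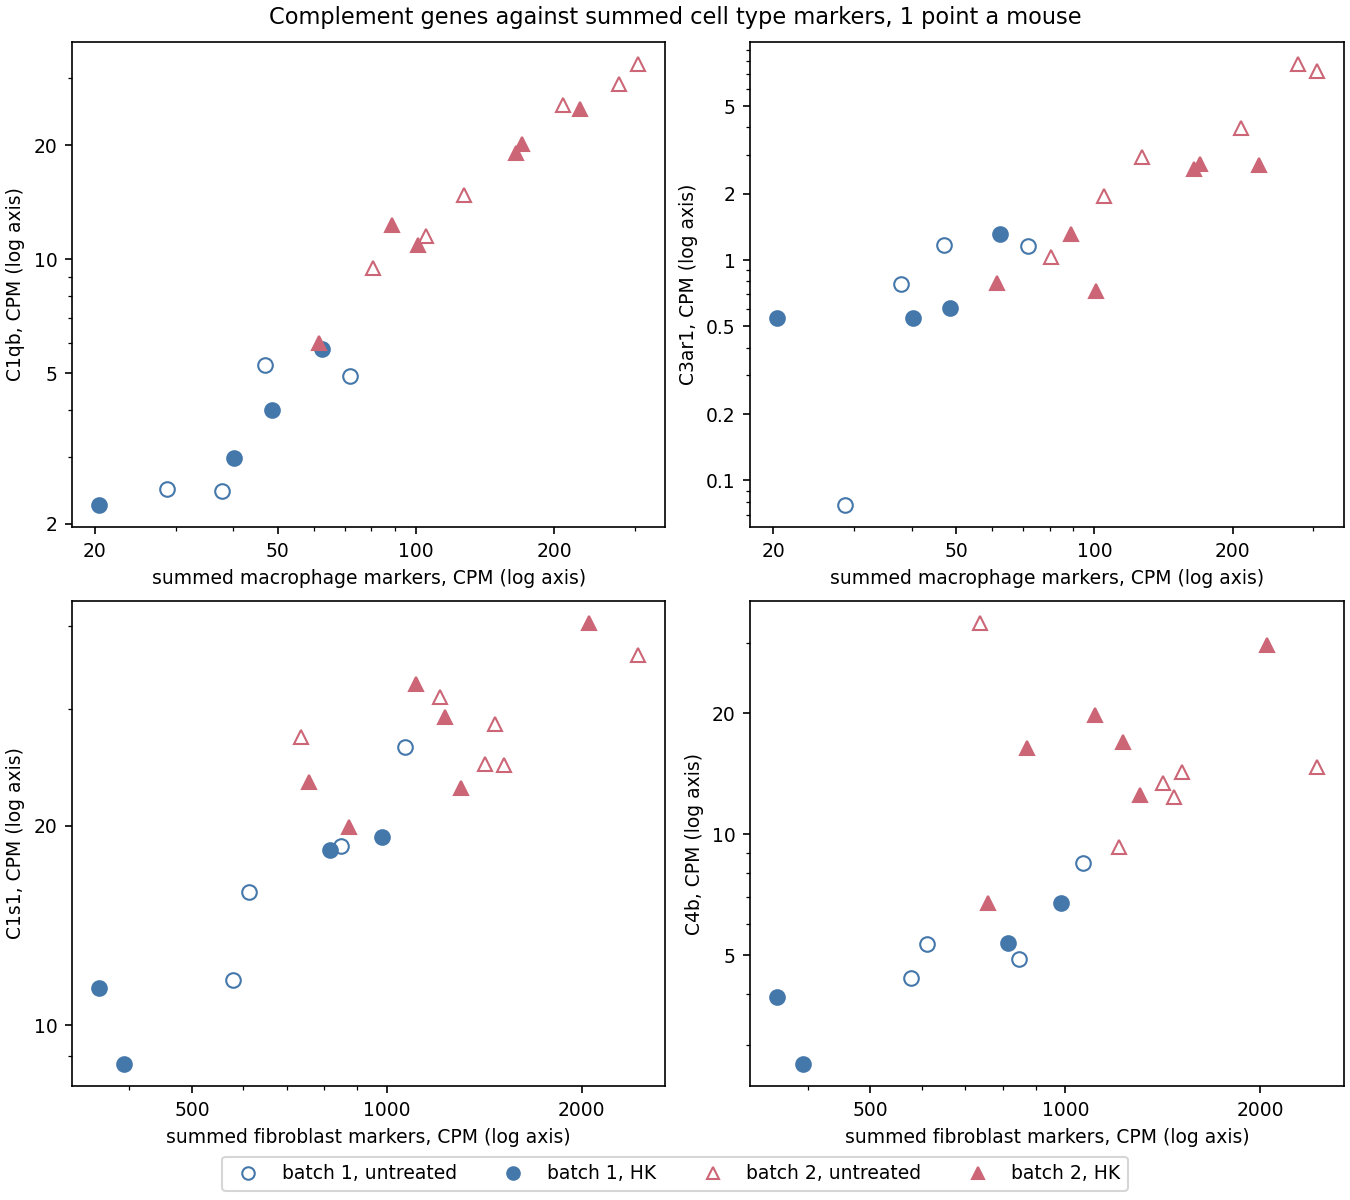
CPM of C1qb and C3ar1 against the summed CPM of the 13 macrophage markers, and of C1s1 and C4b against that of the 12 fibroblast markers, all on log axes, 1 point a mouse, with circles for batch 1, triangles for batch 2 and filled points for HK. C1qb rises with the macrophage sum from 20.4 to 305 CPM, while C4b in untreated female 3 stands at 33.6 CPM beside a fibroblast sum of 737 CPM.

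The genes most like each member over the 20 mice were chosen by Pearson's r over all 13626 genes tested, on the same adjusted values, and are a description. For C1qa and C1qb they were led by Lyz2, which encodes lysozyme (r = 0.932 and 0.952), followed by the antibody receptor gene Fcgr3 (0.91 and 0.95). For C1qc they were Grn (0.954), Sirpa (0.929) and Lyz2 (0.925), and for C3ar1 Cyba (0.908), Msr1 (0.906) and Slc11a1 (0.873). Lyz2 is also on the macrophage list. C1s1 was most like the laminin gene Lama4 (0.957) and the matrix protease gene Mmp2 (0.938), C1ra like the collagen receptor gene Ddr2 (0.928) and Cmklr1 (0.925), and Serping1 like Ace (0.958) and Acvrl1 (0.949). The nearest genes to C3 (Ces2g at 0.846, Slit3 at 0.84) and to C4b (Luzp1 at 0.889, Dram1 at 0.872) were less close.

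The rest of the complement system was measured through 51 further genes. Of these, 8 had no counts in any mouse (among them C1rb, Mbl1 and Mbl2), which allows a level of up to 0.00817 CPM over all mice, counting error only. With these 8 included, 17 of the 51 had under 20 counts in all, and 23 were tested. Of the terminal pathway, which forms the membrane pore, several genes were scarcely covered, with 4 counts of Hc (complement C5), 1 each of C8a and C8b and 9 of C9, and the same held for Cfb (14 counts) and Cfi (2). C1rl had 148 counts, and C2, the partner of C4, had 286, against 4162 for C4b. Among the well covered were Cfd (factor D, a median of 25.7 CPM per kb), the inhibitor genes Clu (17.5), Cd55 (16.9) and Cd59a (11.1), and the gene of a C1q-binding protein, C1qbp (20.7).

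None of the 23 was called for HK, 10 with estimates above 0 and 13 below (median -0.0169, lowest adjusted p = 0.811 in edgeR). The estimates were -0.31 ± 0.25 for C5ar1, the receptor of the C5a fragment and likewise on the study's list, 0.41 ± 0.29 for Cfd and -0.08 ± 0.12 for Cd59a. By sex 6 were called (16.1% of all genes tested were). C7, a component of the membrane attack complex, was higher in males, with 1.04 to 18.7 CPM (median 5.38) against 0.0605 to 1.6 (median 0.427) in females and a log2 fold change of 3.36 ± 0.44 (adjusted p = 2.02e-05 in edgeR). Masp1, a protease of the lectin pathway, was lower in males, with 1.85 to 3.85 CPM against 3.93 to 5.59 and no overlap (0.389% of genes), at -0.82 ± 0.11 (adjusted p = 2.69e-05). Cpn1 (1.19) and Clu (0.50) were also called higher in males and Cfd (-1.06) and Cr1l (-0.17) lower. These 4 calls depended on the setting. Without covariates Cfd (adjusted p = 0.115 in edgeR) and Clu (0.0993) were not called, without a filter on low counts Cr1l was not (0.169), and none of the 4 was called in all of the subsets by batch or treatment. Cr1l was also not called without untreated male 1 or 2 (adjusted p = 0.0501 and 0.0553 in edgeR). Between the batches 13 of the 23 were called (37.1% of all genes), 12 higher in batch 2 (18.2%), among them the receptor genes C5ar1 (1.95 ± 0.28), Itgam (1.98 ± 0.32), Itgax (2.10 ± 0.57) and Itgb2 (2.16 ± 0.35), and 1 was lower, the regulator gene Cd46 (-0.70 ± 0.15).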

How the data were processed

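RNA was extracted from gastrocnemius muscle of 20 mice, depleted of ribosomal RNA and sequenced with a 75-cycle kit. The authors aligned reads with STAR 2.6.1c in two-pass mode to GRCm38.p6 with GENCODE M25 and deposited a matrix of counts per gene, whole numbers that had not been normalized. Their notes also name FastQC and DESeq2 1.28.1. The counting tool is not given in the sources used here, nor is its treatment of strand or of reads with several matches. Gene names, positions and exon lengths were taken from GENCODE M21 (GRCm38), which holds 55141 of the 55401 identifiers.

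Depth was 13900180 to 30469644 counts per mouse. Counts were normalized with TMM, genes with low counts were removed with filterByExpr (13626 kept, 13800 in the interaction fits), and differences were tested with the quasi-likelihood test of edgeR 4.0.16 (R 4.3.3) with batch, sex and treatment as terms over all 20 mice. P-values were adjusted by Benjamini-Hochberg over all genes tested, with a threshold of 0.05. Intervals are at 95%. The steps were tested on simulated data. CPM values are counts divided by a mouse's total over the genes kept, scaled by its TMM factor, and multiplied by 1e+06. Correlations used log2 CPM with a prior count of 2, adjusted for batch and sex, and permutations within batch and sex that treat mice as exchangeable there, adjusted over 54 relations (36 pairs and 18 relations to marker lists). The floor for a gene without counts is 3 counts over the unscaled total of all mice.

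The genes named were the 9 members, further complement genes that share a family or locus with one (C4a, C1rb, C1s2, C1rl), C5ar1, Cd59a and Cfd, those with p under 0.05 for treatment or sex, and the 3 genes with the highest r to each member. Other complement genes were named after their values were seen, and some genes are not reported here. The members and the gene lists were chosen with earlier results of these data known. The comparison of the batches was added after the values were seen. Nothing in the labels says that mice with the same replicate number belong together, and p-values measure the spread between mice. Alternatives were DESeq2 size factors, DESeq2 1.42.0 Wald tests, limma 3.58.1 voom, no filter on low counts, other covariates, each batch, sex or treatment alone and leaving out each mouse in turn.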

Additional observations from a re-analysis of the deposited data

Results flagged for a closer look

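Among 54 groups of values (each member in each treatment, and in each treatment and sex) 3 held a mouse far from the others of its group. Chance gives about 1 in 20 for separate groups of like mice. These groups overlap and mix the batches, so that rate is only a rough guide, and 1 C4b value was flagged in both of its groups. C4b stood at 33.6 CPM in untreated female 3, of batch 2, the next of the 10 untreated mice being at 14.7 and the next of the 5 untreated females at 12.4, so that this gap took 0.646 and 0.749 of the range. In the same mouse C3 was at 125 CPM, the highest of the untreated mice, and the summed fibroblast markers were at 737 CPM, the lowest of batch 2. Serping1 stood at 86.5 CPM in HK-treated male 3, of batch 2, with a gap of 0.467 of the range of the 10 HK-treated mice, and this mouse was also the highest of all in C1ra, C1s1 and C3. Without untreated female 3 the log2 fold change of C4b with HK was 0.125.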

How the results depend on the processing

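No setting called a member for HK except the fit without a filter on low counts. There edgeR's prior degrees of freedom went from 4.26 to infinite, 502 genes were called (247 higher, 255 lower), C3ar1 among them (adjusted p = 0.000872, of a range from 0.000872 to 1 over its settings), as was Cfd (higher, adjusted p = 1.48e-05), and 5 members were called by sex (C1qa, C1qb, C1qc, C3 and C3ar1). DESeq2 Wald tests called 7 genes for HK (6 higher, 1 lower), no member, and leaving out 1 mouse gave 0 to 1 (1 without HK-treated female 1). Without the filter the treatment by sex interaction had 314 calls and the treatment by batch interaction 225.

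By sex, against 2197 genes over all mice, 1316 were called in batch 1 alone, 878 in batch 2 alone, 489 in untreated mice alone, 651 in HK-treated mice alone and 1827 to 2281 without 1 mouse. Between the batches, against 5062, 1497 were called in females alone, 2192 in untreated mice alone, 1476 in HK-treated mice alone and 4451 to 5235 without 1 mouse. These fits use fewer mice, and otherwise the cause was not tested. Correlated pairs of members numbered 31, 13 in batch 2 alone and 26 to 32 without 1 mouse, the lowest without HK-treated female 3.

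Estimates that changed sign, none of them called, were for HK C1qb in females alone (0.0335), C1ra in batch 2 alone (0.0224) and males alone (0.185), C3 in batch 1 alone (-0.109) and females alone (-0.104), C4b in batch 2 alone (0.0639) and males alone (0.313), Cfd in batch 1 alone (-0.412) and Cd59a in batch 1 alone (0.0715). By sex they were C1qc (-0.0306), Serping1 (-0.0292) and C5ar1 (-0.0236) in batch 1 alone, C1ra in batch 2 alone (0.0394) and HK-treated mice alone (0.185), and C4b with voom (0.0406), in batch 2 alone (0.0175) and in HK-treated mice alone (0.294). Leaving out 1 mouse moved the HK estimate of C1ra between -0.211 and 0.0356 and of C4b between -0.222 and 0.125, and the sex estimate of C1ra between -0.206 and 0.0384 and of C4b between -0.234 and 0.112.

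Mice with the same replicate number and sex did not deviate together (r from -0.33 to 0.232, over 0.1 in 1 of 10 pairs). With the replicate block 0 genes were called for HK, 2136 by sex and 0 for the interactions, and the block changed no call of a member. By sex Cfd lost its call in batch 1 alone (adjusted p = 0.447 in edgeR) and HK-treated mice alone (0.376), Clu in batch 2 alone (0.147) and untreated mice alone (0.267), Cpn1 in batch 1, untreated and HK-treated mice alone (0.0748 to 0.456) and Cr1l in each of the 4 subsets (0.115 to 0.423). Depth limited C3ar1 most, with 1 to 142 counts per mouse.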
